A study of Mus musculus with 18 samples.

Results

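The samples described here are the 6 biopsies of the sham side taken at day 3 and day 7, out of 18 samples in the series. They were chosen by their labels alone: every left-side sample of these days was used, with 3 mice at day 3 and 3 other mice at day 7, so that the comparison is unpaired. The series holds both whisker pads of 9 mice, of which 3 were used on each of days 1, 3, and 7 after surgery. In each mouse the buccal and marginal branches of the facial nerve were cut on the right side, and the left side was the sham side, where only the skin was cut and closed again. The comparison follows the later course after skin opening, from day 3 to day 7, in a pad that kept its nerve.

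All 6 sham samples come from mice whose other whisker pad had been denervated in the same surgery, so none is from an unoperated mouse. The left side was always the sham side, and the side of the face and the treatment cannot be told apart. For the nerve transection, depilatory cream was applied and the skin was cut caudal to the pad. Whether the sham side also received the cream, and exactly where its skin was cut, is not given in the sources used here. The fur was trimmed before the tissue was taken with a circular biopsy punch through skin and muscle of the rostral pad. Whether a punch held any of the wound is therefore not known. The mice used for RNA sequencing were adults per the study's methods, which state that mice of both sexes were used. The labels give no age or sex, and the genotype of these mice and the sex of each are not given in the sources used here. Each value is the level of a gene in TPM, the share of a library's transcripts scaled to a fixed total, summed over its transcripts, which the authors had also normalized between samples. A biopsy is a mixture, and fewer cells of a type cannot be told apart from less RNA per cell.

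The whisker pad holds skin and muscle, which react differently to an incision. Its skin carries large vibrissal follicles and fine pelage hairs, whose shafts are made by matrix cells that fill up with hair keratins and then with keratin-associated proteins, small proteins rich in cysteine or in glycine and tyrosine that cross-link the keratin filaments. After an incision, keratinocytes at the wound edge switch to stress keratins and alarmins, while neutrophils and then macrophages enter and fibroblasts lay down matrix. Beneath the skin lie facial muscles of fast fibers, whose contractile and glycolytic transcripts are abundant in a biopsy that reaches them.

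The sums of the deposited values ran from 947496 to 1017222 in the 3 day 3 samples and from 1031535 to 1120313 in the 3 day 7 samples. The number of reads per sample is not given in the sources used here. Both tissues were present in every sample: the contractile list summed to 32170 TPM or more, and the epidermal list to 5220 TPM or more. The 10 most abundant genes held 15.9% to 16.9% of the sum at day 3 and 22.3% to 23.5% at day 7. Hemoglobins and the other red blood cell genes summed to 25640, 28740, and 8481 TPM at day 3 and to 63150, 3965, and 32560 TPM at day 7, so blood content varied widely between biopsies of one day. The 4 Y-linked genes measured (Ddx3y, Eif2s3y, Kdm5d, and Uty) summed to 95.4 TPM or more in 14 of 18 samples and to 2.89 TPM or less in the other 4, which are both sides of day 7 mice 1 and 2. The day 7 group therefore mixed mice with and without Y-linked transcripts, whereas all 3 day 3 mice had them.

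Of 14950 genes tested between the days, 7 had an adjusted p under 0.05, or 0.0468% (limma, Benjamini-Hochberg adjustment). The copies Rpl15-ps2, Gm10020, and Gm6123 rose, the hair fiber genes Gm7735 and Krtap1-4 fell, and the short pseudogenes Gm10042 and Gm37421 also fell. Without adjustment, 1818 genes had a p under 0.05. A gene was tested if it reached 1 TPM in 3 of the 6 samples. Rpl15-ps2, Gm6123, Gm10042, and Gm37421, 4 of the 7 genes, did so only through the day in which they were high. These 4 had to differ in order to be tested, so that their values are given as a description and their calls support nothing. No member of the 38 lists of markers and pathways passed the test on the sham side, and the lists are therefore described by how many of their genes lay wholly above or below the values of the other day. Over all genes tested, 8.42% lay wholly higher at day 7 and 9.57% wholly lower, and the median log2 difference was -0.03. Rescaling each sample to an equal sum moved that median to -0.125.

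Hair fiber genes lay lower at day 7 without exception among those tested. Keratin-associated protein genes lie in clusters on chromosomes 11, 16, and 7 of the mouse genome (build GRCm38), at chr11:99550130-99993994, chr16:88610705-89571183, and chr7:142174535-142304594, and these intervals hold 87 protein-coding genes. The list of these 87 genes was drawn up after their values had been seen, and no test was made on it. Of them, 78 could be tested on the sham side, and all 78 lay lower at day 7, with log2 differences from -4.04 to -0.50 and a median of -1.30. The values of 46 of the 78 were wholly lower, against 9.57% of all genes tested. Gm10061 and 2310079G19Rik, 2 of the 78, reached the minimum only through day 3. Both protein-coding genes called in the comparison lie in these clusters.

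The summed values of the clusters showed the same. Their genes summed to 28080, 27470, and 19030 TPM in the 3 mice of day 3. In the 3 mice of day 7 they summed to 8622, 11770, and 10500 TPM. At day 1, in other mice of the sham side, the sum had been 7149, 6512, and 3341 TPM. On the sham side the days did not overlap, and the day 3 mice were the highest. On the denervated side at day 1 the sum was 27030, 6060, and 5062 TPM. Replicate 1 there lay within the day 3 range of the sham side, whereas its own sham side was at 7149 TPM. The difference between days 3 and 1 shares the day 3 samples, and there 79 of 80 genes tested were higher at day 3, with a median log2 difference of 2.07. Of the 80, 69 were wholly higher and 0 wholly lower, where 10.7% and 6.9% of all genes were.

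**Figure D1:**
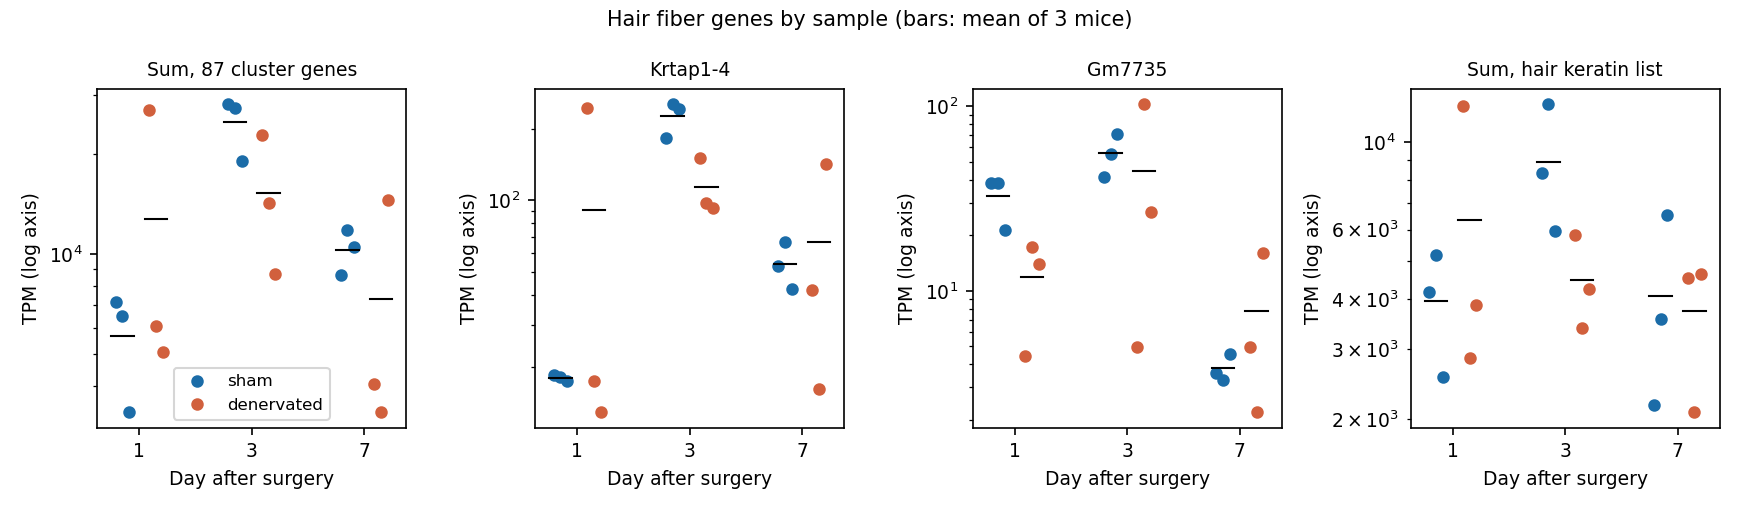
TPM on a log axis against the day after surgery for the sum of the 87 cluster genes, Krtap1-4, Gm7735, and the sum of the hair keratin list; each point is 1 mouse, blue for the sham and orange for the denervated side, and bars are means of 3 mice. On the sham side Krtap1-4 lay between 182.5 and 253 TPM at day 3 and between 42.4 and 66.6 TPM at day 7, whereas the denervated points of day 7 spread from 16.1 to 143 TPM.

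Krtap1-4, which encodes a high-sulfur keratin-associated protein (chr11:99583062-99583654, minus strand), fell. Its values were 182.5, 253, and 241.5 TPM at day 3. They were 52.8, 66.6, and 42.4 TPM at day 7. The groups did not overlap, and the log2 difference was -2.06 with a SE of 0.20 (adjusted p = 0.0491, limma, Benjamini-Hochberg adjustment). At day 1 it had been between 17.4 and 18.5 TPM, so that its 3 sham groups were all apart. It was among the 7 of 14903 genes (0.047%) called between day 3 and day 1. There it rose by 3.60 on the log2 scale (adjusted p = 0.00217, limma). That comparison shares the day 3 samples, so its call is not independent of the one at day 7. The call at day 7 is a narrow one: leaving out any 1 of the 6 samples gave an adjusted p between 0.0518 and 0.245 (limma), and the log2 difference stayed between -2.23 and -1.90.

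Gm7735, a gene of the chromosome 16 cluster (chr16:89169490-89169648, plus strand), also fell. Its values were 41.3, 55.6, and 71.2 TPM at day 3 and 3.58, 3.30, and 4.57 TPM at day 7. The lowest mouse of day 3 was far above the highest of day 7, and the log2 difference was -3.69 with a SE of 0.22 (adjusted p = 0.00402, limma, Benjamini-Hochberg adjustment). It had been at 38.4, 38.3, and 21.4 TPM at day 1, below every mouse of day 3 and above every mouse of day 7. Without day 7 replicate 1 or 2 the adjusted p was 0.116 or 0.0527 (limma), and it stayed under 0.05 without each of the other 4 samples.

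The transcript of Gm7735 nearly equals that of its neighbor Gm9789. The 159 bases of Gm7735 form its whole annotated transcript, from start codon to stop codon, and differ from the coding sequence of Gm9789 at 1 of 159 positions, shown in capitals. They are printed because within these bases only that position tells reads of one gene from reads of the other.
Gm7735, transcript bases 1 to 159: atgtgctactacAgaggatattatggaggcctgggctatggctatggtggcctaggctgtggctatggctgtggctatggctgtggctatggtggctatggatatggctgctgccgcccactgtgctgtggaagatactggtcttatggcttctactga
Gm9789, transcript bases 54 to 212: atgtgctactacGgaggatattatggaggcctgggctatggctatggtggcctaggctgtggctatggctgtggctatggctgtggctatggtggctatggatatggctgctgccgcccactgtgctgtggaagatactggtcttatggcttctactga
Of the 53 codons of Gm7735, 35.8% are for glycine, 26.4% for tyrosine, and 15.1% for cysteine. Over 21651 mouse coding genes the medians are 6.0%, 2.7%, and 2.1%. Krtap1-4 is of the other kind, with 27.5% cysteine and 0.5% tyrosine among its 189 codons. Gm9789 itself was at 29.1, 26.8, and 27.6 TPM at day 3 and at 2.78, 3.54, and 0.455 TPM at day 7. Its values did not overlap, but it missed the threshold (log2 difference -3.60, SE 0.51, adjusted p = 0.12, limma). Gm7735 is alike to 5 other annotated genes over 80% of its length, so the division of reads among these genes is uncertain.

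The genes next in rank among those that were lower came mostly from the same clusters. The rule for named genes fills each direction up to 15 with the genes of lowest p that missed the threshold. Of the 11 genes added in the lower direction, 7 lie in the 3 clusters, which hold 78 of all 14950 genes tested. The cluster list was drawn up after these same values were seen, so this count is a description and supports nothing. Krtap20-2, a glycine-tyrosine gene of chromosome 16, was at 7.65, 6.92, and 13.2 TPM at day 3 and at 0.880, 1.34, and 1.01 TPM at day 7 (adjusted p = 0.0605, limma). Krtap9-3, a high-sulfur gene of chromosome 11, was at 452, 589, and 490 TPM at day 3 and at 230, 253, and 203 TPM at day 7 (log2 difference -1.15, adjusted p = 0.11). Neither gene overlapped between the days. The other 4 of the 7 beside Gm9789 are Gm11562, Gm10061, Gm6358, and Gm11938, with log2 differences from -4.04 to -1.12 and adjusted p between 0.118 and 0.12 (limma). The -4.04 is that of Gm10061, which was tested only through its day 3 values. The most abundant genes of the clusters showed it as well: Krtap8-1 was between 1797 and 3644 TPM at day 3 and between 710 and 1308 TPM at day 7. Krtap7-1 was between 1561 and 3058 TPM at day 3 and between 1024 and 1215 TPM at day 7, again with no overlap.

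Most promoters of the clusters hold a letter pattern that a smaller share of all promoters hold. RefSeq promoter windows of build GRCm38.p6 ran from 250 bases before to 50 after the start of a gene. Matching by symbol to the 78 tested cluster genes gave 71 windows. TATAAA, searched on both strands, stood in 60 of the 71 windows (84.5%) and in 13.6% of all 32851 windows. CTTTGA, searched likewise, stood in 26.8% of the cluster windows and in 16% of all. CTTTGT stood in 22.5% and 18.7%. The windows of 4 genes that were lower at day 7 are printed 5′ to 3′ on the strand of the gene, 2 of the cysteine kind and then 2 of the glycine-tyrosine kind, with matches to these motifs in capitals.
Krtap1-4, chr11:99583628-99583927 (minus strand): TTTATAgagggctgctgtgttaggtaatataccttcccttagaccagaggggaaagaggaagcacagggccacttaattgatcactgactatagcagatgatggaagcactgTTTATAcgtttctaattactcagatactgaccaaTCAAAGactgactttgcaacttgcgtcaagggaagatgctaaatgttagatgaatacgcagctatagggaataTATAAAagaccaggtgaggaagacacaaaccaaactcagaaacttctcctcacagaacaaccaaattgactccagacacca
Krtap9-3, chr11:99598057-99598356 (minus strand): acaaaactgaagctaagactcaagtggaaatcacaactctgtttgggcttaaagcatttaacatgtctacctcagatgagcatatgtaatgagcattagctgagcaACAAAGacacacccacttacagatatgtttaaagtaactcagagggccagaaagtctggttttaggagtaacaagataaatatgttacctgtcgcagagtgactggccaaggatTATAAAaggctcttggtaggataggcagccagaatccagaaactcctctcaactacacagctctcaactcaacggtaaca
Gm7735, chr16:89169240-89169539 (plus strand): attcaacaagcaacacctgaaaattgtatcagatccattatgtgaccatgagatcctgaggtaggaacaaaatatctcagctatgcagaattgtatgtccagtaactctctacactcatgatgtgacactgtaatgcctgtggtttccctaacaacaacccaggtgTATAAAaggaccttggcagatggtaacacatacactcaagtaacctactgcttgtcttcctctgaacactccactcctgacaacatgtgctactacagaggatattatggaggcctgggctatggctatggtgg
Krtap20-2, chr16:89205611-89205910 (plus strand): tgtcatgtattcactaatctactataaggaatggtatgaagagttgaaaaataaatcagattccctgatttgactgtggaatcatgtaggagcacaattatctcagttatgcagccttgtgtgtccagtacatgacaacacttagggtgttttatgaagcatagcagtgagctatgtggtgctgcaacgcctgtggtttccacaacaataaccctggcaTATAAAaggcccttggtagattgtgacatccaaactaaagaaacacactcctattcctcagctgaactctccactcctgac
The last TATAAA begins 31 bases before the start of Krtap1-4, 30 before that of Krtap9-3, and 31 before that of Krtap20-2. In Gm7735 it begins 84 bases before the annotated start, which is its start codon. A match describes letters in the window and not the binding of a factor.

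Hair keratins, the filament proteins made before the keratin-associated proteins, lay lower at day 7 in every gene tested. Of 24 genes of the list of hair keratins and inner root sheath, 0 were higher and 0 were called. Wholly lower were 10, against 9.57% of all genes tested, and the median log2 difference was -1.19. The list summed to 8329, 12430, and 5943 TPM at day 3 and to 2164, 3576, and 6533 TPM at day 7, so the highest day 7 mouse overlapped the range of day 3. Krt83, a keratin of the hair cortex, was at 685, 1350, and 503 TPM at day 3 and at 134, 234, and 257 TPM at day 7 (log2 difference -1.95, adjusted p = 0.237, limma). Krt84, a hair keratin and one of the 11 genes added in the lower direction, was at 35.6, 46.99, and 15.2 TPM at day 3 and at 2.21, 1.18, and 4.00 TPM at day 7 (log2 difference -3.45, adjusted p = 0.12). Both were apart between the days.

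The inner root sheath, the layer that molds the growing shaft, did not follow in all mice. Krt71 was at 847, 1178, and 590 TPM at day 3 and at 275, 274, and 1256 TPM at day 7. Krt25 was at 615, 823, and 442 TPM at day 3 and at 254, 213, and 869 TPM at day 7. In both genes 2 day 7 mice were below every day 3 mouse, and the other, replicate 3, was the highest of all 6. S100a3, a calcium-binding protein of the hair cuticle, was at 1065, 1271, and 950 TPM at day 3 and at 280, 843, and 1075 TPM at day 7, with overlap. The 2 low mice for Krt71 and Krt25 are those without Y-linked transcripts. With a Y-linked term, chosen after seeing the data, the log2 differences of both genes turned to 0.59 and 0.52. Such a fit sets only day 7 replicate 3, the highest mouse, against day 3. Of 28 regulators of the hair follicle, 6 were wholly lower and 2 wholly higher, against 9.57% and 8.42% of all genes tested. The median of these regulators, -0.15, turned to 0.071 without day 7 replicate 1.

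The epidermis showed a like shift in its upper layers. Of 30 genes of epidermal differentiation, 12 were wholly lower at day 7, against 9.57% of all genes tested. Of the 30, 0 were higher and 0 were called, with a median log2 difference of -0.89. Their sum was 8636, 10630, and 15960 TPM at day 3 and 9054, 5220, and 6362 TPM at day 7. Replicate 1 of day 7 lay inside the range of day 3, and the other mice below every mouse of day 3. Krt10, the keratin of suprabasal cells, was at 1215, 1460, and 2045 TPM at day 3 and at 1182, 531, and 903 TPM at day 7 (log2 difference -0.89, adjusted p = 0.351, limma). Krtdap, Calm4, and Sbsn, further products of differentiating keratinocytes, had log2 differences of -0.61, -0.60, and -0.56, and each overlapped between the days.

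Of 11 basal keratinocyte genes, 10 were lower at day 7, 2 of them wholly so, and 0 were wholly higher, with a median log2 difference of -0.19. Over all genes tested, 9.57% were wholly lower. Krt5 was at 2023, 2859, and 2792 TPM at day 3 and at 1861, 2101, and 2183 TPM at day 7, and Krt14, its partner, also overlapped. Scnn1a, the alpha subunit of the epithelial sodium channel, was between 14 and 15.1 TPM at day 3 and at 8.28, 6.16, and 7.68 TPM at day 7 (log2 difference -0.94, adjusted p = 0.148, limma). Bicdl2 was at 28.4, 39.9, and 30.6 TPM at day 3 and at 14.3, 12.4, and 11.8 TPM at day 7 (log2 difference -1.32, adjusted p = 0.101). Both were apart and both missed the threshold.

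Stress keratins and alarmins, which mark keratinocytes after wounding, were lower in 20 of 22 genes tested. Of the 22, 4 were wholly lower, against 9.57% of all genes tested, and 0 were called, with a median log2 difference of -0.75. Krt17, a keratin of wound edges and of hair follicles, was at 1843, 2363, and 2393 TPM at day 3. It was at 1654, 1552, and 1482 TPM at day 7, below every day 3 mouse (log2 difference -0.48, adjusted p = 0.312, limma). Krt6a was at 524, 586, and 603 TPM at day 3 and at 316, 272, and 547 TPM at day 7, where 1 mouse overlapped. Sprr1a, which encodes a protein of the cornified envelope, was at 635, 371, and 493 TPM at day 3 and at 252, 111, and 239 TPM at day 7 (log2 difference -1.37, adjusted p = 0.258). At day 1 Sprr1a had been between 164.5 and 194 TPM. Defb6, a beta-defensin of skin and muscle, was at 1228, 827, and 1680 TPM at day 3 and at 666, 754, and 600 TPM at day 7 (log2 difference -0.83, adjusted p = 0.306).

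Of 15 sebaceous gland genes, 3 were wholly lower, against 9.57% of all genes tested. All 15 were lower, with a median of -0.71. The most abundant of them, Scd1, a fatty acid desaturase, was between 468 and 623 TPM at day 3 and between 402 and 686 TPM at day 7, with overlap. Mgst1 also overlapped. Elovl4, which elongates very long fatty acids, was at 544, 280, and 452 TPM at day 3 and at 183, 104, and 340 TPM at day 7 (log2 difference -1.13, adjusted p = 0.384, limma).

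Muscle genes lay in the other direction. The contractile list summed to 32170, 34810, and 34990 TPM at day 3 and to 53480, 53950, and 47100 TPM at day 7. Every day 7 sum lay above every day 3 sum. Skin and muscle are parts of one biopsy. Whether these higher sums reflect more muscle, and bear on the lower skin genes above, was not tested. With the muscle level as a covariate none of the 7 called genes passed (adjusted p from 0.169 to 0.97, limma), and Krtap1-4 and Gm7735 had log2 differences of -3.03 and -3.10. Since the muscle level separates the days, it and the day cannot be told apart in such a fit.

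**Figure D2:**
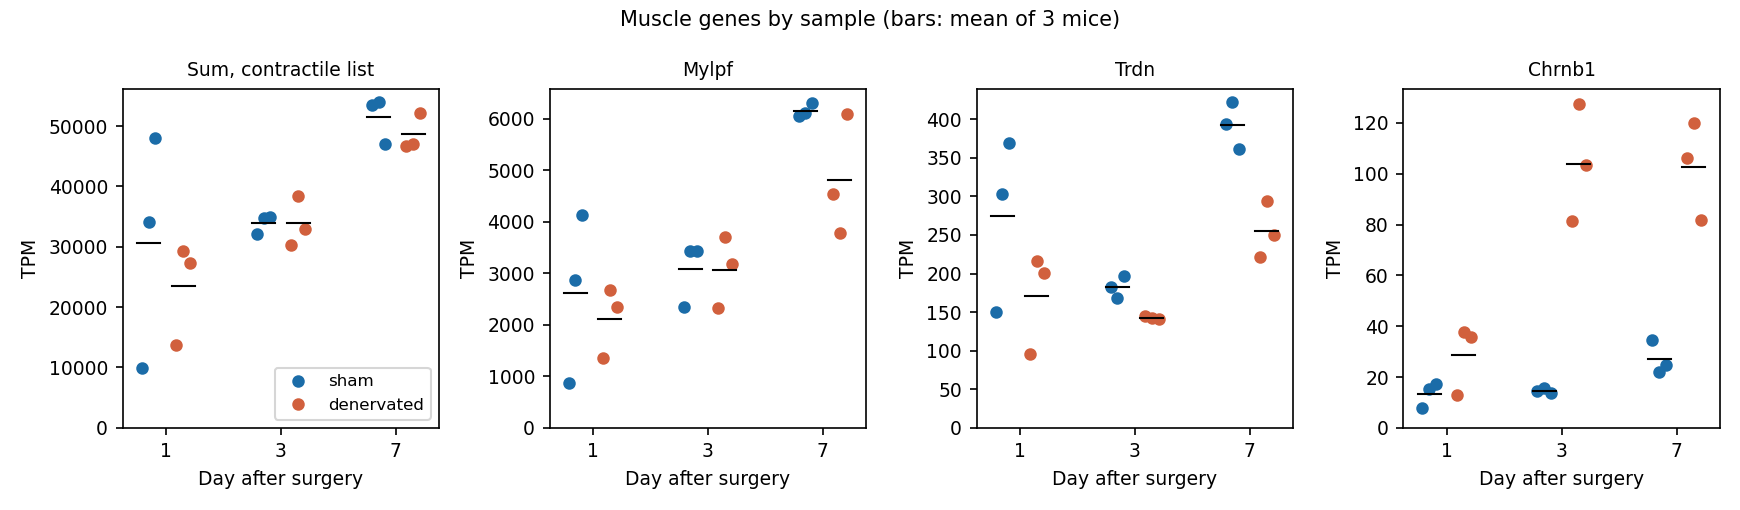
TPM against the day after surgery for the sum of the contractile list, Mylpf, Trdn, and Chrnb1; each point is 1 mouse, blue for the sham and orange for the denervated side, and bars are means of 3 mice. The sham sums of day 7 (47100 to 53950 TPM) lie above those of day 3 (32170 to 34990 TPM), and Chrnb1 of the denervated side lies above the sham side at days 3 and 7.

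Of 30 contractile genes, 29 were higher at day 7 and 0 were called, with a median log2 difference of 0.51. Wholly higher were 18, against 8.42% of all genes tested. Mylpf, the regulatory light chain of fast myosin, was at 2352, 3435, and 3432 TPM at day 3 and at 6051, 6100, and 6303 TPM at day 7 (log2 difference 1.02, SE 0.19, adjusted p = 0.205, limma). Tnnc2, the calcium-binding troponin of fast fibers, was at 3079, 4097, and 4129 TPM at day 3 and at 5939, 6744, and 5630 TPM at day 7. Tnnt3, fast troponin T, and Atp2a1, the calcium pump of fast fibers, had log2 differences of 0.58 each. All 4 genes were apart between the days and missed the threshold.

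Trdn came closest to a call among the higher genes that missed it. Triadin anchors calsequestrin to the calcium release channel of the sarcoplasmic reticulum. Its gene was at 182, 168, and 196 TPM at day 3 and at 394, 423, and 362 TPM at day 7, so that its lowest day 7 mouse was well above the highest of day 3. The log2 difference was 1.11 with a SE of 0.12 (adjusted p = 0.0723, limma). Asph, whose locus also encodes junctin of the same complex, was at 37.9, 40.7, and 44.7 TPM at day 3 and at 71.6, 79.0, and 64.0 TPM at day 7 (log2 difference 0.79, adjusted p = 0.159). Other genes of striated muscle stood in this group of 12: Fbxo40, a muscle ubiquitin ligase subunit, had a log2 difference of 0.93, Itgb1bp2 (melusin) of 0.72, and Fsd2 of 0.81, with adjusted p between 0.152 and 0.159 (limma). Each was apart between the days.

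Further genes of that group are of other kinds. Nova1, a splicing factor best known from neurons, was at 14.2, 18.2, and 14.1 TPM at day 3 and at 42.9, 33.0, and 29.5 TPM at day 7 (log2 difference 1.15, adjusted p = 0.152, limma). Adk (adenosine kinase), Dclre1a (a DNA repair nuclease), B230118H07Rik, and Gm10985 had log2 differences from 0.65 to 1.29. Their adjusted p lay between 0.159 and 0.176 (limma), and each was apart between the days.

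Genes of energy metabolism lay in the same direction as the contractile genes. Of 16 genes of glycolysis and glycogen, all 16 were higher at day 7, with a median of 0.39. Wholly higher were 14, against 8.42% of all genes tested. Eno3, the muscle enolase, was at 999, 1220, and 1084 TPM at day 3 and at 1662, 1527, and 1684 TPM at day 7 (log2 difference 0.56, adjusted p = 0.247, limma). Pgam2, Gapdh, and Aldoa were apart as well, with log2 differences of 0.47, 0.46, and 0.15. Of 24 nuclear genes of the respiratory chain, all 24 were higher and 20 wholly so, with a median of 0.35. Atp5b was at 2341, 2266, and 2233 TPM at day 3 and at 2814, 2900, and 3010 TPM at day 7 (log2 difference 0.35, adjusted p = 0.332). Ndufa4 had the same log2 difference of 0.35, with no overlap.

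Genes that muscle raises on loss of its nerve went both ways on the sham side. Of 13 tested, 7 were higher and 6 lower at day 7, with log2 differences from -0.56 to 0.86. The median was 0.04, and it turned below 0 when samples were rescaled to an equal sum. Of the 13, 2 lay wholly higher and 1 wholly lower, against 8.42% and 9.57% of all genes tested. Runx1, a transcription factor named here after its values were seen, was the 1 gene wholly lower, between 7.77 and 8.80 TPM at day 3 and at 6.60, 6.26, and 5.87 TPM at day 7 (log2 difference -0.37, adjusted p = 0.324, limma). Trim63, an atrophy ubiquitin ligase, was at 68.2, 22.0, and 21.3 TPM at day 3 and at 41.9, 42.1, and 32.0 TPM at day 7, with overlap. Gadd45a was at 38.3, 35.1, and 34.0 TPM at day 3 and at 47.3, 32.5, and 32.3 TPM at day 7, where the denervated side was between 243 and 523 TPM on both days. Chrnb1, the beta subunit of the muscle acetylcholine receptor, was one of 2 genes wholly higher, the other being Kcnn3, also named after its values were seen (log2 difference 0.49). Chrnb1 was at 14.4, 15.5, and 13.5 TPM at day 3 and at 34.8, 22.1, and 24.8 TPM at day 7 (log2 difference 0.86, adjusted p = 0.238, limma). On the denervated side it was between 81.2 and 127 TPM on both days. Of the genes of muscle regeneration, 7 could be tested and 4 were higher, with a median of 0.25 and log2 differences from -0.73 to 1.19. Myl4 and Myod1 were wholly higher and 0 genes wholly lower, and Myod1, named after its values were seen, had a log2 difference of 0.88. Myl4, an embryonic and atrial light chain, was at 5.30, 7.35, and 8.38 TPM at day 3 and at 23.0, 13.4, and 14.3 TPM at day 7 (log2 difference 1.19, adjusted p = 0.238), whereas Myf6, a regulator of mature fibers, overlapped.

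The genes that rose were all copies of coding genes, and each had a like level on both sides of a mouse. A processed pseudogene is a copy of a messenger RNA that was inserted back into the genome. Rpl15-ps2 (chr9:72060937-72061549) and Gm10020 (chr15:52477617-52478228) resemble Rpl15, which encodes a protein of the large ribosomal subunit. Gm6123 (chr1:4771131-4772199) resembles Pdhb, which encodes a subunit of pyruvate dehydrogenase. Aligned over its whole length, Rpl15-ps2 differs from the Rpl15 transcript at 8 of 613 positions and Gm10020 at 2 of 612. Gm6123 differs from Pdhb at 19 positions of 1079 aligned, with 13 gap positions. For each copy the stretch with the most differences within the coding sequence of its parent is printed, from GENCODE M21 transcripts, with the differing bases in capitals, since only such bases tell the reads apart.
Rpl15-ps2, transcript bases 1 to 120: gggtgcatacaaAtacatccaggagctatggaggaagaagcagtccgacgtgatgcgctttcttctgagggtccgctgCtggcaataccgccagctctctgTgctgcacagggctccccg
Rpl15, transcript bases 220 to 339: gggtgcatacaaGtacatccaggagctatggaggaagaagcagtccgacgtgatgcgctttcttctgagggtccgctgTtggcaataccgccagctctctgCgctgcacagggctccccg
Gm10020, transcript bases 83 to 202: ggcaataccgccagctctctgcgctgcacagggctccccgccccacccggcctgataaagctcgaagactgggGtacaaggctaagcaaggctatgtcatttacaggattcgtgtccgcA
Rpl15, transcript bases 300 to 419: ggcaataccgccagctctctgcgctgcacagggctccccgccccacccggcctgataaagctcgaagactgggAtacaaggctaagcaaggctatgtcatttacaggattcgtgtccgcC
Gm6123, transcript bases 761 to 850: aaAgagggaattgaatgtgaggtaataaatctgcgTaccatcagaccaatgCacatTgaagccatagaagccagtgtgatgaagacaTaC
Pdhb, transcript bases 865 to 954: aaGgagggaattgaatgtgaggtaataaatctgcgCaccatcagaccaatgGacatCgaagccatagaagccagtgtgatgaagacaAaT
Of Rpl15-ps2 and Rpl15, 3 of 120 bases differ in this stretch, of Gm10020 and Rpl15 2 of 120, and of Gm6123 and Pdhb 6 of 90. Rpl15-ps2 and Gm10020 are each alike to 24 other annotated genes over 80% of their length, so the division of reads among these copies is uncertain.

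Rpl15-ps2 was at 0.231, 0.332, and 0 TPM at day 3 and at 35.8, 46.2, and 76.2 TPM at day 7. The log2 difference was 6.23. Gm10020 was at 2.32, 0.851, and 3.53 TPM at day 3 and at 77.1, 86.0, and 52.8 TPM at day 7. It rose by 4.83 on the log2 scale (SE 0.40, adjusted p = 0.0183, limma, Benjamini-Hochberg adjustment). Gm6123 was listed at 0 in all 3 day 3 samples and was at 8.74, 9.20, and 9.47 TPM at day 7. The days did not overlap in any of the 3 genes.

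Mice of one day were not alike at day 1. There Rpl15-ps2 was at 63.2, 61.8, and 0.958 TPM on the sham side, so that 2 mice were as high as those of day 7 and 1 was as low as those of day 3. Gm10020 was at 76.9, 57.3, and 1.48 TPM at day 1, and Gm6123 at 4.73, 6.96, and 0.176 TPM, high and low in the same mice. The denervated side of each mouse had the level of its sham side: Rpl15-ps2 was at 0.806, 0.738, and 0.638 TPM at day 3 and at 45.6, 47.8, and 58.1 TPM at day 7. On that side Gm10020 rose too, by 4.77 on the log2 scale (adjusted p = 0.00351, limma). Rpl15-ps2 and Gm6123, which there too reached the minimum only through day 7, had log2 differences of 5.37 and 4.08. With only 3 mice a day, mouse and day cannot be told apart for these genes. Of the parents, Rpl15 overlapped. It was at 538, 583, and 702 TPM at day 3 and at 485, 561, and 559 TPM at day 7. Pdhb was wholly higher at day 7 and missed the threshold, at 140.5, 162, and 153.5 TPM at day 3 and at 196, 209, and 168 TPM at day 7 (log2 difference 0.33, adjusted p = 0.387).

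**Figure D3:**
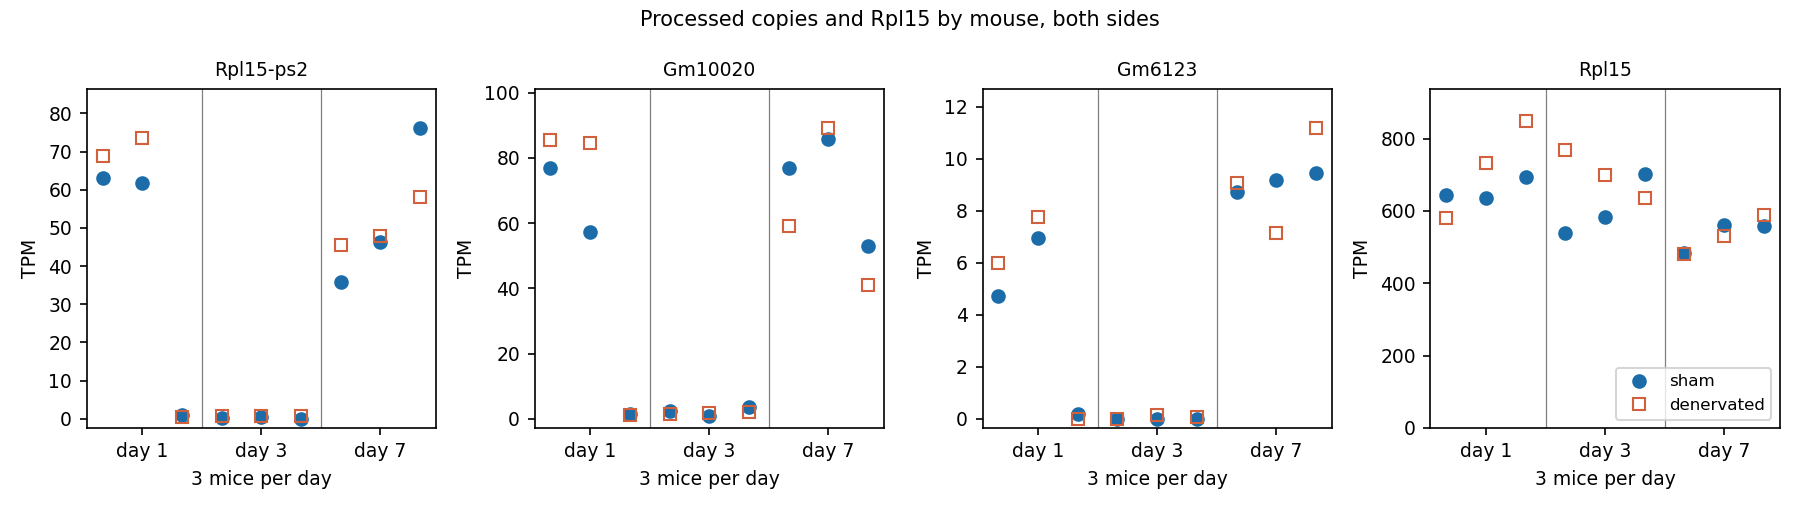
TPM of Rpl15-ps2, Gm10020, Gm6123, and Rpl15 in the 9 mice, 3 for each day in the order of their replicate numbers; filled circles are the sham and open squares the denervated side. Both sides of a mouse lie together, and for the copies 5 mice are high and 4 near 0, with the low ones being the 3 mice of day 3 and replicate 3 of day 1.

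The calls of the copies rest on which mice are in the fit. Without day 3 replicate 1 the adjusted p of Gm10020 was 0.0929 and without day 7 replicate 1 or 2 it was 0.221 or 0.0851 (limma). Without a day 7 sample Rpl15-ps2 and Gm6123 did not reach the minimum of 1 TPM in enough samples and were not tested. In a fit of all 9 sham samples, which includes the day 1 mice, their adjusted p were 0.243 and 0.203 and that of Gm10020 0.284.

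The short pseudogenes that were called lower were listed at 0 in all 3 day 7 samples. Gm10042 (chr3:153785053-153785134) was at 5.99, 14.2, and 8.01 TPM at day 3. Its 78 bases resemble 1202 other annotated genes. Gm37421 (chr3:10232180-10232311), which resembles the ubiquitin gene Ubb, was at 3.29, 4.06, and 3.94 TPM at day 3. No fold is given against a group listed at 0. Gm10042 was also listed at 0 in 2 of the 3 day 1 sham samples and in 1 sample of each day on the denervated side at days 3 and 7, and Gm37421 in 2 of the 3 day 1 sham samples. Without day 7 replicate 1 or 2 neither passed (adjusted p 0.116 and 0.0656 for both, limma), and without a day 3 sample neither was tested. Gm11034, which missed the threshold and was likewise tested only through its day 3 values, was listed at 0 in all 3 samples of days 1 and 7 and was at 6.01, 31.0, and 7.35 TPM at day 3.

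Genes of the cells that respond to a wound mostly overlapped between the days, as did most genes tested. Over all genes tested, 8.42% lay wholly higher and 9.57% wholly lower at day 7. Mast cell genes were the list with the highest median, 0.69 over 9 genes, all 9 of them higher at day 7 and 1 wholly so. Mcpt4, a mast cell chymase, was at 68.6, 106.5, and 50.2 TPM at day 3 and at 202, 93.9, and 113 TPM at day 7. Cma1, another chymase, was at 54.5, 71.4, and 30.7 TPM at day 3 and at 153, 69.8, and 97.7 TPM at day 7 (log2 difference 1.04, adjusted p = 0.352, limma). Tpsb2, a tryptase, had a log2 difference of 0.69. All 3 overlapped, and replicate 1 of day 7 was the highest mouse for each.

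Macrophage genes had a median of 0.15 over 24 genes, with 1 wholly higher and 0 wholly lower, and the median turned to -0.145 when day 3 replicate 3 was left out and to -0.083 when day 7 replicate 3 was. The wholly higher gene is Retnla, a product of alternatively activated macrophages, at 40.5, 150, and 102 TPM at day 3 and at 202, 180.5, and 219 TPM at day 7 (log2 difference 1.23, adjusted p = 0.345, limma). Lyz2, lysozyme of myeloid cells, was at 303, 150, and 100 TPM at day 3 and at 172, 106, and 343 TPM at day 7, with full overlap. Stab1, a scavenger receptor of tissue macrophages and some endothelium, was outside the list and ranked next to Trdn among the higher genes. It was at 35.2, 36.7, and 36.4 TPM at day 3 and at 67.2, 59.0, and 74.5 TPM at day 7 (log2 difference 0.88, SE 0.12, adjusted p = 0.118). At day 1 it had been at 27.5, 56.0, and 58.2 TPM, overlapping day 7.

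Against 9.57% and 8.42% of all genes tested, 2 of 10 neutrophil genes were wholly lower and 1 wholly higher, with a median of -0.31. Their sum spread from 103 to 459 TPM at day 3 and from 84.9 to 305 TPM at day 7. Chemokines and cytokines had a median of -0.24 over 27 genes, with 5 wholly lower and 1 wholly higher. Antigen presentation, T and NK cells, interferon-stimulated genes, collagens, matrix glycoproteins, and wound fibroblast genes had medians from -0.01 to 0.11. The medians of the lists of antigen presentation, interferon-stimulated genes, collagens, and wound fibroblasts turned below 0 when samples were rescaled to an equal sum. Of 36 cell cycle genes, 24 were higher and 0 were wholly apart in either direction, and their median of 0.19 turned below 0 without day 3 replicate 1 or day 7 replicate 3.

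Early response genes lay mostly lower at day 7, while the sums of the list overlapped between the days. Of 27 immediate early genes, 7 were higher and 0 were called, with a median of -0.27. Wholly lower were 9 and wholly higher 2, against 9.57% and 8.42% of all genes tested. Klf4, a factor of epithelial differentiation, was at 91.2, 100, and 102 TPM at day 3 and at 79.1, 68.7, and 73.4 TPM at day 7 (log2 difference -0.41, adjusted p = 0.275, limma). Ier3 was at 34.8, 43.4, and 36.1 TPM at day 3 and at 28.2, 21.0, and 27.2 TPM at day 7 (log2 difference -0.58, adjusted p = 0.27). Dusp1, a phosphatase of MAP kinases, lay the other way, at 36.6, 44.2, and 36.3 TPM at day 3 and at 82.1, 61.7, and 39.2 TPM at day 7, with overlap. Of 16 heat shock genes, 3 were wholly lower, with a median of -0.16. Hspb1, a small heat shock protein of keratinocytes and muscle, was at 665, 684, and 806 TPM at day 3 and at 447, 405, and 488 TPM at day 7 (log2 difference -0.68, adjusted p = 0.232). Hsp90ab1, Hspa8, and Cryab overlapped between the days.

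**Figure D4:**
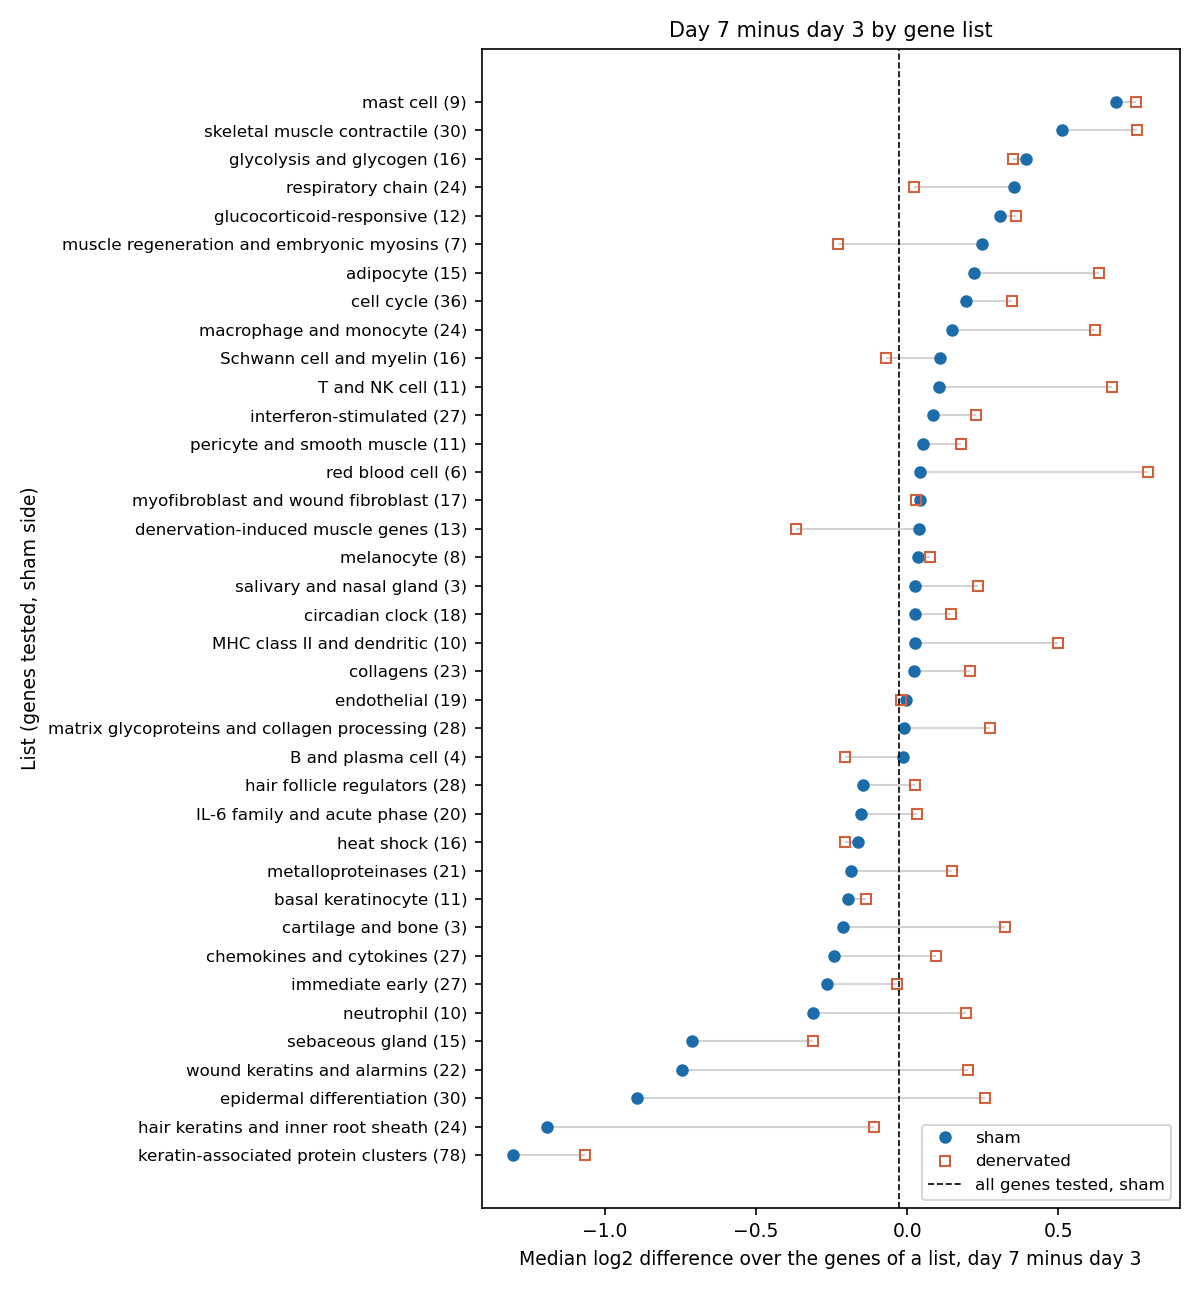
Median log2 difference, day 7 minus day 3, over the genes of each list but the sex-linked one, with the number of genes tested on the sham side in brackets; filled circles are the sham and open squares the denervated side, and the dashed line is the median over all genes tested on the sham side (-0.03). The sham medians run from -1.30 for the keratin-associated protein clusters to 0.69 for mast cell genes.

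The division of the day 7 mice by Y-linked transcripts reached other genes, which were chosen after their values were seen. Ddx3y was at 26.7, 21.9, and 23.5 TPM at day 3 and at 0.115, 0.0839, and 28.2 TPM at day 7, and Eif2s3y at 55.9, 69.3, and 82.1 TPM and at 0.448, 0.0827, and 95.1 TPM. Defb8, a beta-defensin, was at 356, 489, and 1461 TPM at day 3 and at 0.580, 0.578, and 1173 TPM at day 7. It was low in the same mice as the Y-linked genes, also on the denervated side, where it was listed at 0 in both. Svs4, known as a secretory protein of the seminal vesicle, was at 5.98, 15.99, and 7.99 TPM at day 3 and at 464, 149, and 36.2 TPM at day 7, highest in those 2 mice (log2 difference 3.82, adjusted p = 0.244, limma).

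Without day 7 replicate 3, the day 7 mouse that had Y-linked transcripts, 18 genes were called, with Defb8, Ddx3y, and Eif2s3y among them. Without day 7 replicate 1 or 2, 0 genes and 1 gene were called by limma, and 1604 and 1008 had an unadjusted p under 0.05. All 3 day 3 mice had Y-linked transcripts, so a Y-linked term in the fit sets only day 7 replicate 3 against them. The log2 differences of Krtap1-4 and Gm7735 were then -2.38 and -3.45.

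**Figure D5:**
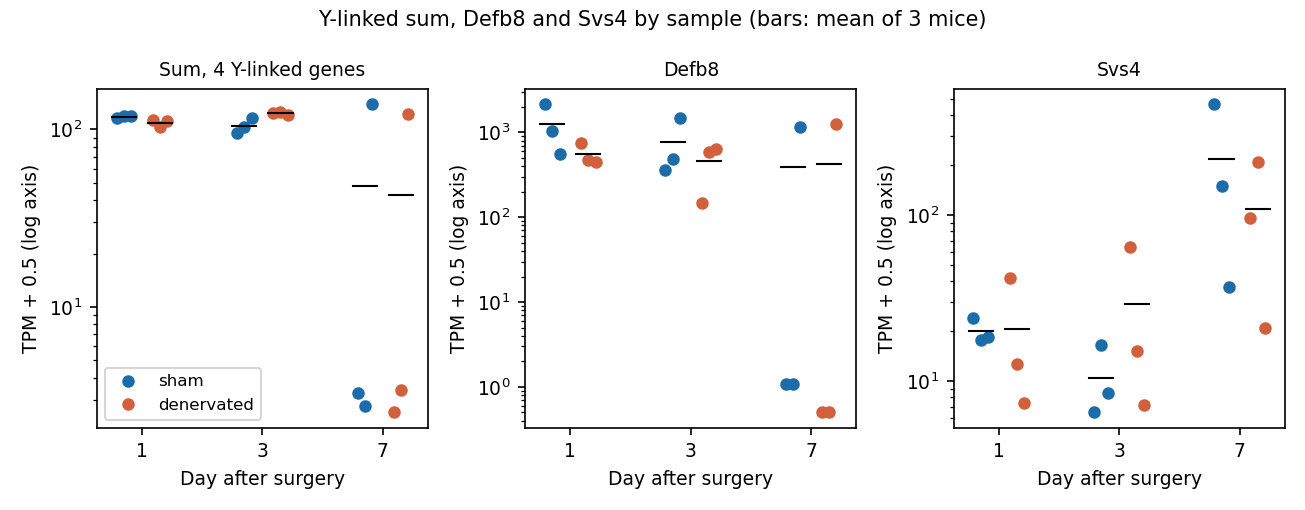
TPM plus 0.5 on a log axis against the day after surgery for the sum of 4 Y-linked genes, Defb8, and Svs4; each point is 1 mouse, blue for the sham and orange for the denervated side, and bars are means of 3 mice. At day 7 the Y-linked sum and Defb8 are near 0 in 2 mice and high in the other on both sides.

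On the denervated side of the same mice, 52 of 15041 genes (0.346%) were called between the same days, 41 higher and 11 lower, and leaving out 1 of its 6 samples gave 2 to 29 calls. There 3 genes of the contractile list rose, namely Neb, Myot, and Myh2, by 1.15, 1.26, and 3.34 on the log2 scale (adjusted p = 0.0494, 0.0228, and 0.022, limma). On the sham side their log2 differences were 0.47, 0.39, and 1.5, and none passed. The contractile list had 20 of 31 genes wholly higher on the denervated side, where 10.9% of all genes were, and a median of 0.76. The difference between the sides was not called for these genes (adjusted p = 0.549, 0.526, and 0.564, limma).

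The skin lists that lay lower on the sham side went different ways on the denervated side. The keratin-associated protein clusters had 0 of 80 genes higher and a median of -1.06, but only 6 were wholly lower, where 9.65% of all genes were. Their sums there were 22650, 14240, and 8684 TPM at day 3 and 4070, 3348, and 14480 TPM at day 7, and replicate 3 of day 7 overlapped. Krtap1-4 was at 151, 97.3, and 92.8 TPM at day 3 and at 42.0, 16.1, and 143 TPM at day 7 (log2 difference -1.26, adjusted p = 0.494, limma). Epidermal differentiation genes had 26 of 30 genes higher on the denervated side, with a median of 0.26 against -0.89 on the sham side. Hair keratins had 9 of 24 higher, with a median of -0.11 against -1.19, and wound keratins 11 of 21 higher, with a median of 0.20 against -0.75. None of these genes was called for a difference between the sides.

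The test of that difference called 1 of 14853 genes (0.00673%). Gm15310, a transcribed processed pseudogene (chr16:94358941-94359312), was at 25.2, 24.2, and 21.3 TPM on the denervated side at day 3 and between 1.5 and 1.6 TPM at day 7. On the sham side it was listed at 0 in 5 of the 6 samples and was at 0.388 TPM in the other. It was tested only through its denervated values, so that the difference between the sides restates the change of the denervated side. In the unpaired fit that difference was -3.29 on the log2 scale with a SE of 0.32 (adjusted p = 0.0112, limma). When both sides of a mouse were paired in the fit, the adjusted p was 0.289, and 0 genes were called, with 1684 at an unadjusted p under 0.05.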

How the data were processed

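RNA from biopsies of skin and muscle of the whisker pad was prepared with a TruSeq RNA kit and sequenced on an Illumina NextSeq. Per the methods and the submitters' processing notes, the authors made reads with bcl2fastq (version 2.17.1.14), used ParDRe to remove duplicates and Fastp to trim, and ran kallisto (version 0.43.1) against GRCm38 cDNA. The signal values deposited by the authors are TPM normalized between samples with sleuth. Tests had been chosen for plain TPM and were kept. Reads per sample are not given in the sources used here, so counting error is unknown.

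Of 113194 transcripts, 98.46% (99.48% of the summed values) matched GENCODE M21 and were summed by gene. Genes that reached 1 TPM in 3 or more of 6 samples (6 of 12 for the difference between sides) entered a two-sided limma test of log2(TPM + 0.5) (limma 3.58.1, R 4.3.3). The variance prior followed mean level, and p-values were adjusted after Benjamini-Hochberg, with 0.05 as the threshold. Log2 differences are on that scale and understate low genes. Differences on the list level carry no test. Replicates are separate mice. Columns were matched to samples by run number and side letter, since mouse numbers of day 7 differ between columns and titles, and 0 columns were left unused. The sides of a mouse were paired by origin: their deviations from the group means correlated between 0.169 and 0.562 within mice. Between sides of different mice of one day they correlated between -0.488 and 0.235, so these ranges overlap. The tests were checked on simulated data with known changes. Python 3.11.15 with pandas 2.3.3, numpy 2.4.6, and matplotlib 3.10.9 served for tables and figures.

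Named are up to 15 called genes in each direction, filled with the genes of lowest p and a mean of at least 5 TPM, the most abundant 2 to 4 members of lists, and genes called between sides; some lists are given by counts alone, and 1 gene that the rule names is not reported here. Members and lists were chosen with earlier results of these data known, and the cluster list, Defb8, and Svs4 after their values were seen. Alternatives were other pseudocounts, minimums, scalings, fits, and samples left out; a Y-linked term and coding genes alone were added after seeing the data.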

Additional observations from a re-analysis of the deposited data

Results flagged for a closer look

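In the unpaired fit the change from day 3 to day 7 differed between the sides for Gm15310, by -3.29 on the log2 scale (denervated minus sham, adjusted p = 0.0112, limma with Benjamini-Hochberg adjustment). When both sides of a mouse were paired, its adjusted p was 0.289 and 0 genes were called, with 1684 at an unadjusted p under 0.05, and with a pseudocount of 0.1 its adjusted p was 0.543 (limma). On the denervated side all 3 mice of day 7 were below all 3 of day 3, and on the sham side 5 of 6 samples were listed at 0. The gene was tested only through its denervated values, and the difference between the sides restates the change of that side. The 372 bases of its transcript resemble 8 other annotated genes over 80% of their length, and the closest coding gene, Dppa5a, differs at 9 of 325 aligned positions. The division of reads among these genes was not tested.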

How the results depend on the processing

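The number of genes called between the sham days depended on the mice and the fit more than on the scale. From 7, it went to 4 with a minimum of 5 TPM, 13 without the trend, 1 in a fit of all 18 samples, 2 in a fit of the 9 sham samples, and 4 with the muscle covariate. Of the fits chosen after seeing the data, a Y-linked term in all 18 samples gave 4 and coding genes alone 1. Leaving out 1 sample gave 0 to 18 genes: 4 without day 3 replicate 1 or 2, 0 without day 7 replicate 1, 1 without day 7 replicate 2, and 18 without day 7 replicate 3. Krtap1-4 passed in 4 of 20 alternatives, Gm7735 in 14 of 20, and Gm10020 in 11 of 19 in which it was tested. Of the 4 genes tested only through 1 day, Rpl15-ps2 and Gm6123 passed in 12 of 16 each, Gm10042 in 8 of 16, and Gm37421 in 8 of 15.

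On the denervated side the 52 genes became 34 with a pseudocount of 0.1, 21 with equal sums, 24 with the top transcript of each gene, and 2 to 29 with 1 sample left out. Between sham days 3 and 1 the 7 genes became 12 with any value above 0 kept, 0 in the fit of all 18 samples (1982 at an unadjusted p under 0.05, limma), and 2 to 32 with 1 sample left out, where 32 was without day 1 replicate 1. For the difference between the sides, the 1 gene became 0 with the replicate block, with a pseudocount of 0.1, with a minimum of 5 TPM, and with coding genes alone. It became 2 with values above 0 and in the fit of all 18 samples, and 0 to 2 with 1 sample left out. An unadjusted p under 0.05 was reached by 1684 genes with the block, 1176 with that pseudocount, 984 with that minimum, and 1148 with coding genes alone (limma). Gm15310 had an adjusted p of 0.543 with a pseudocount of 0.1 (log2 difference -3.09) and of 0.0501 without sham day 7 replicate 1. Day 3 and day 7 of the sham side come from different mice, so that no pairing was possible for the main comparison.

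Directions of named genes that missed the threshold turned under some alternatives, and the cause was not tested. With the muscle covariate the log2 differences were 0.41 for S100a3, 2.38 for Krt71, 2.15 for Krt25, 0.82 for Krt6a, 0.035 for Sprr1a, 0.26 for Scd1, 0.56 for Mgst1, 1.47 for Elovl4, 0.45 for Hspa8, and 0.30 for Hsp90ab1. They were -0.071 for Trim63, -0.21 for Gadd45a, -0.725 for Dusp1, -0.18 for Pdhb, and -0.54 for Svs4, and 7.145 for Eif2s3y, 5.465 for Ddx3y, and 10.3 for Defb8. A Y-linked term sets only day 7 replicate 3 against the day 3 mice. With it the log2 differences were 0.585 for Krt71, 0.52 for Krt25, -0.15 for Gadd45a, 0.17 for Hspa8, 0.475 for Eif2s3y, 0.23 for Ddx3y, and 0.89 for Defb8. With that term in all 18 samples they were 0.067 for Scd1, 0.046 for Mgst1, 0.14 for Hspa8, 0.44 for Eif2s3y, 0.165 for Ddx3y, and 1.29 for Defb8. With the top transcript they were 0.094 for Mgst1, -0.01 for Trim63, 0.14 for Hspa8, and 0.71 for Rpl15, and with equal sums -0.064 for Gadd45a. With 1 sample left out, Scd1 ranged from -0.29 to 0.091, Trim63 from -0.019 to 0.81, Gadd45a from -0.14 to 0.13, Lyz2 from -0.30 to 0.585, and Hspa8 from -0.23 to 0.028.

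Medians of 19 lists, all within 0.22 of 0, changed sign with a rescaling or with 1 sample left out, among them those of macrophages, collagens, T and NK cells, fat cells, Schwann cells, clock genes, and hair follicle regulators. Medians of the keratin-associated protein, hair keratin, epidermal, wound, sebaceous, contractile, metabolic, and mast cell lists kept their sign with both rescalings and with each sample left out. Reads per sample are unknown, so counting error of low genes could not be given. A p that misses the threshold does not show that values did not differ.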

Other observations

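Over all genes tested, 8.42% lay wholly higher and 9.57% wholly lower at day 7. Among the other gene lists, genes of fat cells had a median log2 difference of 0.22 over 15 genes, with 12 higher and 0 wholly apart. Glucocorticoid-responsive genes had a median of 0.31 over 12 genes, with 1 wholly higher and 1 wholly lower. Schwann cell and myelin genes had a median of 0.11 over 16 genes, of which 2 were wholly lower. Circadian clock genes had a median of 0.03 over 18 genes, with 0 wholly apart in either direction. Endothelial genes had a median of -0.003 with 2 of 19 wholly higher, and pericyte and smooth muscle genes of 0.05 with 2 of 11 wholly higher and 1 wholly lower. Metalloproteinases and their inhibitors had a median of -0.19 over 21 genes, with 2 wholly lower. The IL-6 family and acute phase list had a median of -0.15, with 2 of 20 wholly lower. Markers of tissues that a biopsy could also hold were mostly too low to be tested: 3 of 25 genes of salivary and nasal glands, 3 of 16 of cartilage and bone, 4 of 9 of B and plasma cells, and 8 of 13 of melanocytes reached the minimum, and 1 of them, of cartilage and bone, was wholly lower at day 7.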
